A study of Homo sapiens with 6 samples.

Results

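The ZNF genes described here are the rows of the deposited table whose symbol is ZNF plus a number, with or without 1 letter, and whose mean over the 6 tumors was at least 5 TPM (a share of all transcripts of a tumor, scaled by gene length). Of 60606 rows in the table, 560 carry such a symbol and 126 of these passed the limit. They were chosen by these mean levels, so the levels are given as a description and support nothing else. Of the 434 others, 60 were listed at 0 in all 6 tumors. Just inside the limit were ZNF789, ZNF16 and ZNF71, with means of 5.03, 5.03 and 5.06 TPM, and just outside it ZNF35, ZNF195 and ZNF791, with means of 5.00, 4.98 and 4.92 TPM.

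RNA was sequenced from 6 tumors of MDA-MB-231, an established human breast cancer cell line, injected with Matrigel under the skin of NSG mice (NOD/SCID/IL2Rγ-null, a strain that lacks T, B and natural killer cells but keeps myeloid cells and stroma). The cells are labelled WT and no transgene is named. The 3 irradiated tumors received 1 local dose of 10 Gy of X-rays once they had reached about 800 mm3, and were taken 3 days later. The 3 controls were not irradiated, and neither their volume nor the day on which they were taken is given. Whether each tumor grew in its own mouse is not stated in the labels, and p-values therefore measure only the spread between these samples, which may be technical. The age of the mice is not given.

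Zinc finger proteins of this family fold short loops of protein around zinc, usually held by a pair of cysteines and a pair of histidines (the C2H2 finger), and strings of such fingers read stretches of DNA. Many of them carry a KRAB box at the start of the protein, which binds the scaffold TRIM28. TRIM28 brings the histone methyltransferase SETDB1 and heterochromatin proteins, and this machinery silences retroelements and other loci. Other members act in ribosome assembly, translation control, the mitotic spindle, RNA binding or DNA repair, and the family forms large clusters on chromosome 19.

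The labelled cell type was checked against its markers. All 7 genes expected in MDA-MB-231, among them VIM, CD44 and EGFR, were above 39 TPM in every tumor, and of 6 genes expected to be low, ESR1, PGR, CDH1 and KRT20 were below 0.4 TPM in every tumor. The other two were higher: ERBB2 was at 25.4 to 40.7 TPM, near the level of EGFR (39.2 to 55.96 TPM), and GATA3 at 1.91 to 4.30 TPM. Of the markers of other cells, skeletal muscle genes (14 listed, 12 tested) summed to 227 to 586 TPM in controls. The irradiated tumors 1, 2 and 3 had sums of 4.33, 163 and 6.30 TPM. Fibroblast markers (11 listed) summed to 479 to 1008 TPM in controls and 134 to 217 TPM in irradiated tumors, with COL1A1 the most abundant and LUM at 0 in all controls. These sums were mostly the collagens COL1A1, COL1A2 and COL3A1. Of the 7 tested, PDGFRB alone was higher in irradiated tumors (mean 8.09 TPM, against 3.51 TPM in controls), with overlapping groups. PDGFRA, THY1 and DPT were at or below 0.66 TPM in every tumor. Endothelial markers (7 listed) summed to at most 9.48 TPM in any tumor, and adipocyte markers to at most 1.00 TPM. Macrophage and leukocyte markers (9 listed) summed to 89.3 to 110 TPM in controls and 109 to 209 TPM in irradiated tumors, mostly CD68, with PTPRC at or below 0.30 TPM. The host tissue was mouse, the values were mapped to the human genome, and no step against mouse reads was given. Reads of mouse cells and of the human tumor cells can therefore not be told apart in these sums. They are not a measure of host cell content. In tissue RNA such as this, fewer cells of a type and less RNA per cell cannot be told apart either.

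The family as a whole stood at nearly the same level in both groups. The 126 members summed to 2152, 1773 and 1974 TPM in control tumors 1, 2 and 3. Irradiated tumors 1, 2 and 3 had sums of 1907, 1994 and 2000 TPM. The irradiated sums lie inside the range of the controls. The highest and the lowest sum both came from controls. Control tumor 2 held the lowest value of the 6 tumors in 49 members (38.9%). The share was 30.8% among the 9889 tested genes that met the same limit of 5 TPM. Control tumor 1 held the highest value in 47 of the 126 members and in 3405 of the 9889 genes. Ribosomal protein genes made 27.0% of the summed TPM in control tumor 2 and 19.8% to 22.3% in the other tumors. The part of this difference in the results was not tested.

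**Figure D1:**
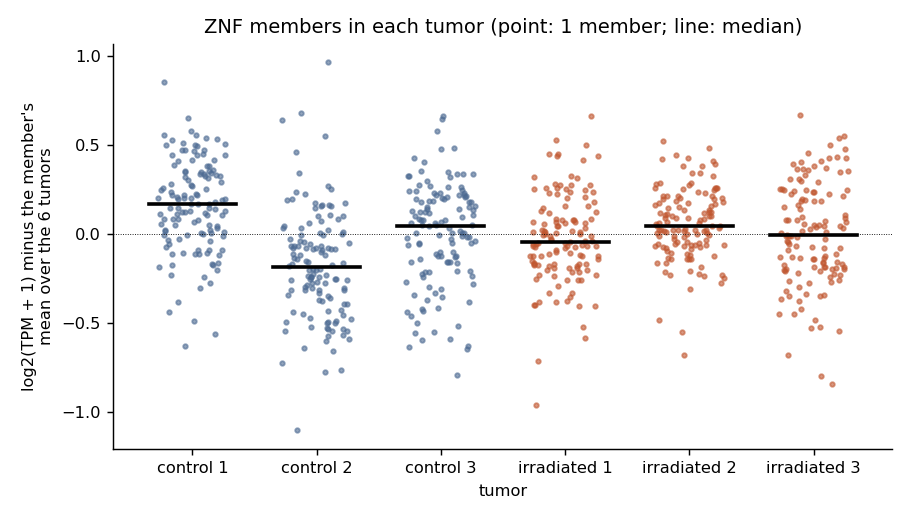
Each point is 1 of the 126 members in 1 tumor, as its log2(TPM + 1) minus its mean over the 6 tumors, with blue for controls, orange for irradiated tumors and a line at the median. The median was 0.17 in control tumor 1 and -0.19 in control tumor 2, and the 3 irradiated tumors lay between them, from -0.04 to 0.04.

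Few members were called between the groups. Log2 fold changes give the irradiated minus the control mean of log2(TPM + 1), a scale that shrinks differences of low genes. They were tested with limma over all 14140 genes whose mean reached 1 TPM, two-sided, with Benjamini-Hochberg adjustment over all of them. In this test 1 member rose at an adjusted p of 0.05, where 1.37% of all tested genes did, and 0 fell, where 1.61% did (2.98% in either direction). Among tested genes at or above 5 TPM 1.44% rose and 1.67% fell, 3.1% together. At an unadjusted p under 0.05, 7 members were higher and 10 lower in irradiated tumors, 17 of 126, where 20.5% of all tested genes and 22.4% of those at or above 5 TPM had such a p. The family's median log2 fold change was 0.0045, with 66 of 126 members above 0 (52.4%), beside a median of -0.056 and 44.3% above 0 over all tested genes.

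The fold changes of the members also covered a narrower range than those of all tested genes at or above 5 TPM. The SD was 0.33 in the members, against 0.57 for all tested genes at or above 5 TPM and 0.47 for the protein-coding ones. The sets share only this lower limit: the median level was 10.8 TPM in the members and 21.9 TPM in all tested genes at or above 5 TPM. An absolute log2 fold change of at least 1 was reached by 2 members (1.59%), ZNF428 and ZNF106, and by 4.88% of those genes. In 13 members all 3 irradiated tumors lay above all 3 controls (10.3% of members, 11.6% of all tested genes), and in 11 all 3 lay below (8.73% of members, 15.0% of all tested genes). Of these, ZNF468, ZNF526 and ZNF608 had a control mean under 5 TPM and were members only through the irradiated tumors, as were 6 members with overlapping groups; 5 others, all with overlapping groups, were members only through the controls. Together 24 members had groups apart, where 26.6% of all tested genes and 28.2% of those at or above 5 TPM (11.8% above, 16.4% below) did. The 95% interval of the fold change had a median half-width of 0.49 over the members, and in 110 of 126 it lay wholly between -1 and 1. It lay within -0.5 and 0.5 in 15 members. In the others it reached beyond -0.5 or 0.5, so a difference of that size is not excluded with these 6 tumors.

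**Figure D2:**
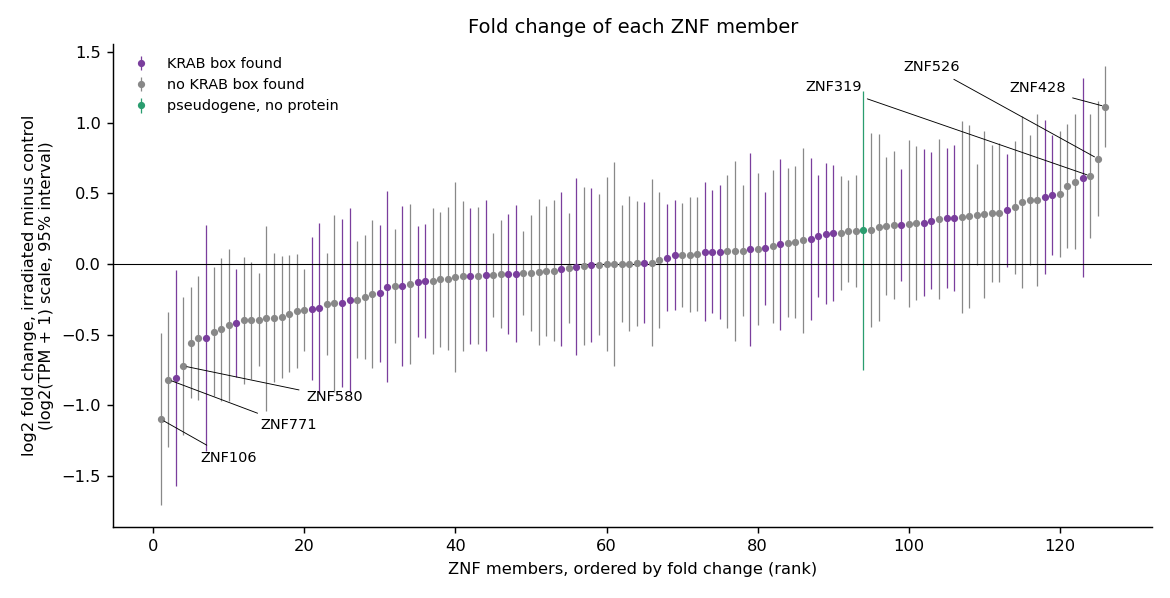
Each point is the log2 fold change of 1 of the 126 members, irradiated minus control, in rising order with its 95% interval, purple where a KRAB box was found in the protein. The points run from -1.10 (ZNF106) to 1.11 (ZNF428), and the purple points lie all along the order, with none beyond -0.81 or 0.61.

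ZNF428 was the only member that rose. It encodes a protein of 218 residues with 1 recognisable finger and no KRAB box, and it lies on chromosome 19 from 43607219 to 43619874, minus strand (ENSG00000131116, GRCh38, GENCODE release 29), where its exons overlap no other gene on that strand. An exon of SRRM5 lies opposite one of its exons, and whether reads were counted by strand is not stated; SRRM5 was listed at 0.06 to 0.27 TPM. Its level was 72.0, 81.7 and 73.9 TPM in control tumors 1, 2 and 3, and 161.5, 156.6 and 177.9 TPM in irradiated tumors 1, 2 and 3. The groups stood far apart, and within each group the 3 values were close together. The mean went from 75.9 ± 5.17 to 165.3 ± 11.1 TPM (SD, n = 3 tumors in each group), a log2 fold change of 1.11 (95% interval 0.83 to 1.40, limma adjusted p = 0.00405). The call was kept in all 15 other fits, those without each single tumor included, with log2 fold changes from 1.04 to 1.17 and adjusted p up to 0.0311.

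With this change ZNF428 became the most abundant member. It held 3.35% to 4.61% of the summed TPM of the family in controls and 7.86% to 8.90% in irradiated tumors. In control tumors 1 and 3 ZNF207 was the most abundant member, with 100.4 and 97.7 TPM, and in control tumor 2 it was ZNF593, with 98.9 TPM. Without ZNF428, the family summed to 1692 to 2080 TPM in controls and to 1746 to 1837 TPM in irradiated tumors.

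The genes around ZNF428 showed smaller differences. Of the 12 other tested genes within 200 kb, 11 had a log2 fold change above 0, with a median of 0.34. The 651 tested genes of chromosome 19 at or above 5 TPM had a median of 0.056, with 57.1% above 0. These sets rest on different limits. The 12 only had to reach a mean of 1 TPM, and LYPD3, ZNF575 and PINLYP lay below 5 TPM. By limma 0 of the 12 rose or fell, and 2 had an unadjusted p under 0.05. Of the 651, 14 rose and 10 fell, and 86 were higher and 48 lower at such a p. ETHE1, a mitochondrial enzyme of sulfide breakdown, was at 66.6, 69.0 and 56.9 TPM in controls and at 79.2, 91.4 and 76.9 TPM in irradiated tumors (0.36, adjusted p = 0.201). XRCC1, a scaffold of single-strand break repair, was at 16.8, 20.4 and 14.8 TPM in controls and at 23.4, 27.6 and 20.4 TPM in irradiated tumors (0.44, adjusted p = 0.230). The nearest of the 12 on either side, the member ZNF576 and the adhesion gene CADM4, had log2 fold changes of 0.45 and 0.43, with adjusted p = 0.375 and 0.413.

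**Figure D3:**
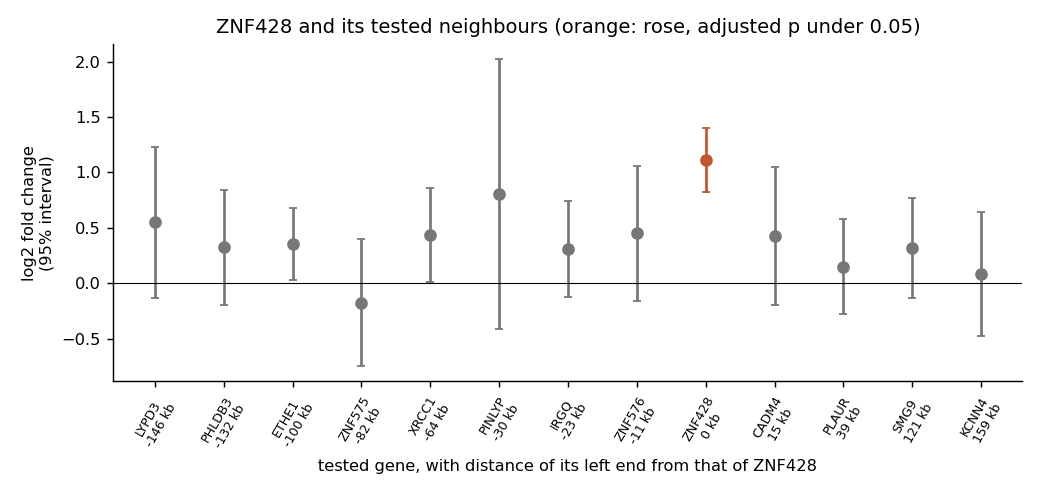
Log2 fold changes, irradiated minus control, with 95% intervals for ZNF428 and the 12 other tested genes within 200 kb, in order along the chromosome with the distance of their left ends in kb. ZNF428 (orange, 1.11) is the only one that rose, and ZNF575 the only one below 0 (-0.17).

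Among the other members with higher values in irradiated tumors, ZNF526 and ZNF319 came next among those whose groups did not overlap. ZNF526, with 13 fingers and no KRAB box, was at 5.35, 4.43 and 5.07 TPM in controls and at 8.17, 9.44 and 9.31 TPM in irradiated tumors (log2 fold change 0.75, 95% interval 0.34 to 1.15, limma adjusted p = 0.0673). ZNF319, with 12 fingers, was at 5.87, 4.10 and 5.13 TPM in controls and at 7.88, 8.07 and 8.75 TPM in irradiated tumors (0.62, interval 0.18 to 1.06, adjusted p = 0.121). The control mean of ZNF526 was 4.95 TPM, so it was a member only through the group in which it was higher. Neither passed the test, although every irradiated tumor lay above every control in both genes. Exons of ZNF319 lie opposite exons of USB1, which was at 67.3, 56.3 and 76.7 TPM in controls and at 77.0, 96.3 and 105.7 TPM in irradiated tumors, and without strand information reads of these genes cannot be told apart. ZNF526 and ZNF319 passed with quantile normalization, and ZNF526 also with medians of ratios and with length and GC correction. ZNF589, a KRAB protein with 4 fingers, had a fold change of 0.61, but its groups overlapped: 8.36, 3.27 and 4.16 TPM in controls and 9.31, 8.51 and 6.49 TPM in irradiated tumors (adjusted p = 0.302).

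Lower values in irradiated tumors were led by ZNF106, an RNA-binding protein with 3 recognisable fingers whose loss in mice damages motor nerves and muscle. It was at 14.7, 8.64 and 12.6 TPM in controls and at 3.48, 6.38 and 5.37 TPM in irradiated tumors (log2 fold change -1.10, 95% interval -1.70 to -0.49, limma adjusted p = 0.0691). All 3 irradiated values lay below all 3 controls. It passed the test without control tumor 2 (-1.30, adjusted p = 0.0385), and with medians of ratios, quantile normalization or length and GC correction. The summed skeletal muscle markers were lower in each irradiated tumor as well, and their highest irradiated value was in tumor 2, as for ZNF106. In controls the orders differed: ZNF106 was highest in tumor 1, which had the lowest muscle sum (227, 243 and 586 TPM in tumors 1, 2 and 3). Their part in this result was not tested.

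ZNF771 and ZNF580 were the other low members without overlap between the groups and with the largest differences. ZNF771, with 8 fingers, was at 9.92, 10.6 and 8.11 TPM in controls and at 5.08, 3.94 and 6.00 TPM in irradiated tumors (-0.82, adjusted p = 0.0783). Its exons lie opposite exons of DCTPP1, which was at 72.9 to 94.7 TPM in controls and at 68.9 to 80.01 TPM in irradiated tumors. ZNF580, a short protein of 172 residues, was at 24.5, 21.3 and 28.9 TPM in controls and at 14.2, 19.1 and 11.5 TPM in irradiated tumors (-0.72, adjusted p = 0.111). Its exons overlap those of CCDC106 and ZNF581 on the same strand, so reads can be split between these genes in more than 1 way. ZNF581 was at 28.9, 43.4 and 33.4 TPM in controls and at 48.9, 37.5 and 27.6 TPM in irradiated tumors (0.089, adjusted p = 0.866), and CCDC106 had a log2 fold change of 0.13. ZNF780A, a KRAB protein with 17 fingers, had a fold change of -0.81 (adjusted p = 0.222), but irradiated tumor 2 stayed among the controls at 8.39 TPM while irradiated tumors 1 and 3 were at 3.52 and 3.14 TPM.

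**Figure D4:**
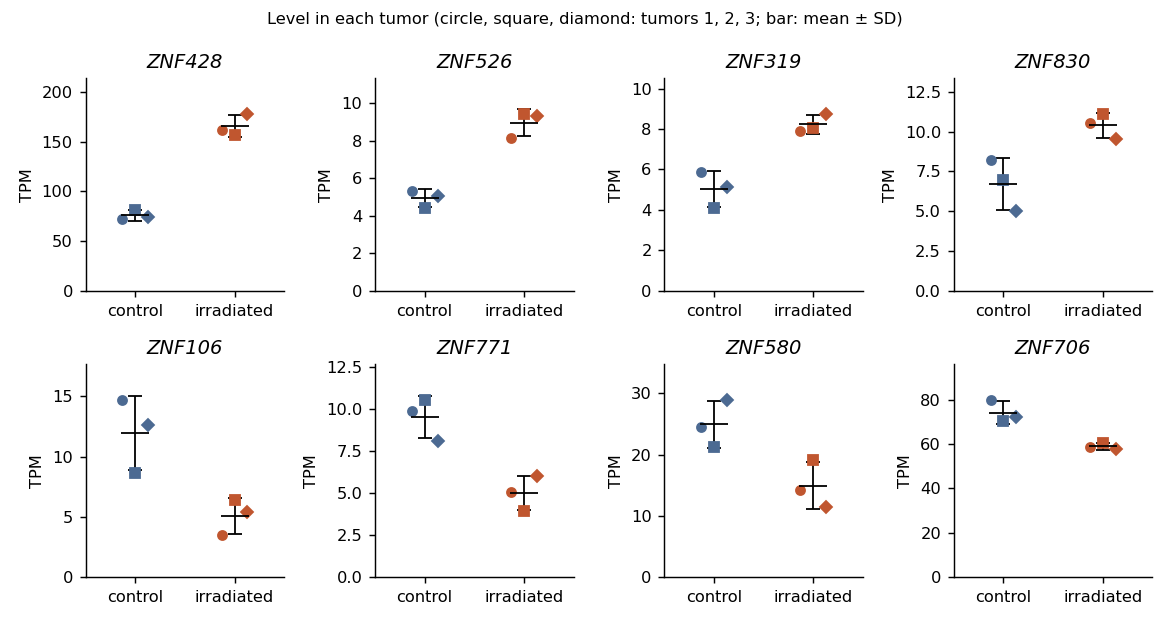
Level in TPM of 8 members in each tumor (circle, square and diamond for tumors 1, 2 and 3 of a group), with mean ± SD as bars; every axis starts at 0. In each of the 8 the 3 irradiated values lie all above (upper row) or all below (lower row) the 3 controls, and ZNF428 goes from 75.9 to 165.3 TPM. All 8 are from the members whose groups do not overlap, so this separation follows from the choice of genes. In most members the groups overlap.

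Among the most abundant members were proteins of ribosome assembly, translation and the spindle, and none of those named here passed. ZNF593, a factor of the maturing large ribosomal subunit, was at 81.3, 98.9 and 89.8 TPM in controls and at 84.8, 84.1 and 88.4 TPM in irradiated tumors (log2 fold change -0.064, 95% interval -0.36 to 0.23). ZNF622, which acts late in the same assembly line, was at 51.5, 50.7 and 47.5 TPM and at 50.8, 45.0 and 45.9 TPM (-0.079, interval -0.38 to 0.22). ZNF598, the ubiquitin ligase that marks collided ribosomes, was at 45.6, 29.4 and 43.5 TPM and at 35.5, 30.6 and 42.5 TPM (-0.11). The groups overlapped in these 3 genes of ribosome assembly and translation, with limma adjusted p = 0.817, 0.767 and 0.804. ZNF207 (BuGZ), which loads the checkpoint protein BUB3 onto kinetochores, was at 100.4, 73.9 and 97.7 TPM in controls and at 67.8, 74.98 and 78.8 TPM in irradiated tumors (-0.28, adjusted p = 0.352), and its groups overlapped only through control tumor 2. Exons of ZNF207 and ZNF664 also overlap other genes on the same strand.

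Several other abundant members were lower in each irradiated tumor without passing the test. ZNF706, a protein of 76 residues with 1 finger, was at 79.9, 70.2 and 72.3 TPM in controls and at 58.6, 60.5 and 57.5 TPM in irradiated tumors (-0.32, adjusted p = 0.194). ZNF511 was at 72.5, 60.4 and 65.4 TPM and at 45.4, 49.0 and 55.8 TPM (-0.39, adjusted p = 0.172), and ZNF787 at 39.9, 44.3 and 51.7 TPM and at 32.9, 33.4 and 25.3 TPM (-0.56, adjusted p = 0.120). With ZNF639 (-0.52) and ZNF146 (-0.48), these made 5 of the 19 members with a mean of at least 20 TPM whose irradiated values lay wholly below the controls (26.3%, beside 16.4% of all tested genes at or above 5 TPM). These shares rest on different limits, and the share of all genes at or above 20 TPM was not computed. ZNF511 shares exons with the read-through gene ZNF511-PRAP1, which was at 3.55 to 6.68 TPM in controls and at 5.04 to 8.14 TPM in irradiated tumors. ZNF664, with 9 fingers, overlapped between the groups, at 36.7 to 54.8 TPM and at 28.7 to 40.4 TPM (-0.38, adjusted p = 0.320). The 19 members had a median log2 fold change of -0.11 with 6 above 0, and the 107 below 20 TPM had one of 0.031 with 60 above 0.

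By protein features, members with and without a KRAB box were described separately. A KRAB box was found in 41 members and none in 84, and the pseudogene ZNF731P has no protein. The 41 had a median log2 fold change of 0.046 (from -0.81 to 0.61) with 22 above 0, and the 84 had one of 0.0015 (from -1.10 to 1.11) with 43 above 0. Of the 41, 0 passed the limma test, a count near the 2.98% of all tested genes, and 1 was higher and 2 lower at an unadjusted p under 0.05, where 20.5% of all tested genes had such a p. In 3 the irradiated tumors lay wholly above and in 1 wholly below the controls, beside 11.6% and 15.0% of all tested genes. KRAB members were less abundant, with a median level of 8.90 TPM against 12.1 TPM, and the longest transcript of their genes had a lower GC content, 46.8% against 55.0% (medians). The 5 members with a SCAN box, a pairing domain (ZNF24, ZNF174, ZNF274, ZNF446 and ZNF496), had fold changes from -0.25 to 0.40.

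Finger number and chromosome also set no group of members apart by calls. The 38 members with up to 4 fingers had a median of -0.016, the 40 with 5 to 9 fingers 0.055, and the 47 with 10 to 36 fingers 0.011. Only ZNF428, with 1 finger, passed. Chromosome 19 held 37 members, whose median was -0.0045 with 18 above 0, beside 0.056 and 57.1% above 0 for all its tested genes at or above 5 TPM. The 14 members on chromosome 16 had a median of 0.25 with 11 above 0, beside a median of -0.020 and 47.8% above 0 for all 477 such genes of that chromosome. The irradiated tumors lay wholly above the controls in 3 of the 14 (ZNF319, ZNF668 and ZNF688), beside 14.7% of the 477, and wholly below in ZNF771 (-0.82), beside 11.9% of the 477. In limma 0 of the 14 passed, with 2 higher and 1 lower at an unadjusted p under 0.05. Of the 477, 6 rose and 5 fell, and 53 were higher and 44 lower at such a p. On chromosome 7, 8 of 10 members were above 0 with a median of 0.096. All 472 tested genes of that chromosome at or above 5 TPM had 42.4% above 0 and a median of -0.076. In none of the 10 were the groups apart, beside 8.69% of the 472 wholly above and 14.6% wholly below. Exons of 27 members overlap another gene on the same strand; the other 99 had a median of 0.0023. In 22 members an exon lies opposite an exon of another gene.

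The partners of the KRAB proteins gave no call. TRIM28, the scaffold itself, was at 696.5, 449.5 and 661.6 TPM in controls and at 425.8, 492.1 and 456.4 TPM in irradiated tumors, with a fold change of -0.37 on the log2 scale (limma adjusted p = 0.284), so control tumor 2 lay among the irradiated tumors. SETDB1, which methylates histone H3 at lysine 9, was at 12.6, 8.78 and 11.4 TPM and at 10.7, 12.4 and 14.5 TPM (0.19, adjusted p = 0.629). The deacetylase HDAC2 was at 108.2, 76.5 and 79.4 TPM and at 43.0, 38.8 and 58.8 TPM (-0.90, adjusted p = 0.056), and the heterochromatin protein CBX3 at 106.3, 85.2 and 82.2 TPM and at 61.7, 73.4 and 49.8 TPM (-0.57, adjusted p = 0.130). In HDAC2 and CBX3 every irradiated value lay below every control. Of 20 genes of the TRIM28 complex and H3K9 and DNA methylation, all tested, 0 passed in limma, where 2.98% of all tested genes did. HDAC2, CBX3, CHD3 and MBD2 were lower at an unadjusted p under 0.05. Such a p, in either direction, was found in 20.5% of all tested genes. The 20 had a median of -0.25 with 5 above 0, beside -0.056 and 44.3% above 0 over all tested genes. In 5 of the 20 the irradiated tumors lay wholly below the controls, beside 15.0% of all tested genes. Without control tumor 2 the median of the 20 was -0.51 and 2 of them fell. In that fit 791 of 14228 genes were called, and the median over all tested genes was -0.13. The 8 genes of the HUSH complex, which silences retroelements beside TRIM28, and its partners had a median of -0.23, with 0 calls and 0 genes at an unadjusted p under 0.05 in limma.

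Members tied to DNA damage were few at these levels. Of 7 listed genes, ZNF385A, ZNF668 and ZNF830 were members, ZNF350, ZNF420 and ZNF432 were tested below 5 TPM, and ZNF365 was too low to test. ZNF830, which promotes repair of double-strand breaks by recombination, was at 8.23, 6.93 and 5.01 TPM in controls and at 10.6, 11.1 and 9.56 TPM in irradiated tumors (0.58, limma adjusted p = 0.165). ZNF668, linked to p53 stability and repair, was at 7.39, 8.04 and 5.18 TPM and at 10.0, 9.66 and 9.15 TPM (0.45, adjusted p = 0.251). In both genes every irradiated tumor lay above every control, as in 11.6% of all tested genes, without a call. ZNF385A, a p53 cofactor that favours arrest, had means of 16.1 ± 5.70 and 18.9 ± 4.40 TPM (SD, n = 3 tumors each; limma 0.26, adjusted p = 0.648), with overlapping groups and a fold change below 0 without control tumor 2 (-0.056). The 6 tested genes of this list had a median of 0.25, 5 of them above 0, beside -0.056 and 44.3% over all tested genes.

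Other members with known roles differed in direction and none passed. The double-stranded RNA-binding ZNF346 was at 12.6, 9.30 and 7.95 TPM in controls and at 14.5, 14.3 and 13.8 TPM in irradiated tumors (0.50, limma adjusted p = 0.200), with the groups apart. ZNF326, which couples splicing to transcript elongation, was at 16.2, 11.3 and 13.8 TPM and at 11.3, 10.1 and 10.2 TPM (-0.35, adjusted p = 0.315), with all irradiated values below. Over all tested genes, 11.6% had every irradiated tumor above every control and 15.0% every one below. ZNF143 and its relative ZNF76, activators of small nuclear RNA and housekeeping promoters, had fold changes of -0.38 and 0.12, and the groups overlapped in both. Of 5 members among the corepressor scaffolds, the breast cancer oncogene ZNF217 was at 10.1 to 15.5 TPM in controls and at 14.0 to 19.5 TPM in irradiated tumors (0.27, adjusted p = 0.504), and ZNF532 at 11.3 to 15.2 TPM and at 8.70 to 10.3 TPM (-0.40, adjusted p = 0.260). ZNF91 and ZNF93, which silence retroelements, were at most at 2.45 and 0.16 TPM in any tumor.

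Starts of the genes were compared through RefSeq promoters (GRCh38.p14), which matched 103 of 126 members, over the 250 bases before the start and on both strands. The GC box GGGCGG was present in 68.0% of these promoters and in 42.3% of all 27305, the ETS motif CCGGAAG in 29.1% and 8.82%, and the NRF1 motif in 12.6% and 5.53%. The CCAAT box was present in 29.1% and 33.0%, the core ACTACAA of the ZNF143 motif in 8.74% and 2.64%, the cyclic AMP response element TGACGTCA in 6.80% and 1.77%, the E2F motif TTTCCCGC in 1.94% and 1.42%, and the interferon-stimulated response element in 1 member, ZNF207, and 3.07%. The median GC content was 64.0% in members and 58.0% in all promoters. The set of all promoters was not matched to the members for expression level or GC content. Whether these differences are particular to the family was not tested. The 3 stretches shown next belong to the member that rose, to ZNF319 as a GC-rich start among members with higher values, and to ZNF106 as the member with the lowest fold change; capitals mark matches to these motifs. For ZNF428, whose window lies almost wholly in its own first exon in GENCODE, only 30 bases around its single match (NRF1) are shown, and the others are the longest stretches before the start that hold no annotated exon.
ZNF428, chr19:43619658-43619687, minus strand: ccgtctcgccGCGCAAGCGCcctaggctct
ZNF319, chr16:58000673-58000922, minus strand: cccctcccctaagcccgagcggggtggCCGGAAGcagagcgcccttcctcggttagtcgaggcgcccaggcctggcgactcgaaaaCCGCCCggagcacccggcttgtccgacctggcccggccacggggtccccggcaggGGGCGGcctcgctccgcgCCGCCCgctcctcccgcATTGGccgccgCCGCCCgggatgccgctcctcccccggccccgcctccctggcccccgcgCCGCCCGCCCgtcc
ZNF106, chr15:42491142-42491232, minus strand: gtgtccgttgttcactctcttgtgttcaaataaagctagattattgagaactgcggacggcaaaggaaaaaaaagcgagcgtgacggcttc
The ZNF319 stretch held 6 GC boxes, which overlap each other near its end, 1 ETS motif and 1 CCAAT box, and the ZNF106 stretch held no match. RefSeq lists 2 starts for ZNF106, and the first listed is shown. A match describes letters in this window and is not a measured binding site.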

How the data were processed

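The deposited table holds TPM values of the authors for 60606 genes in 6 tumors, 1 column a tumor, mapped by name. Per the submitters' processing notes, HISAT2, StringTie, RSEM and hg38 were used; versions, annotation, strand use and any step against mouse reads were not given in the sources used here. TPM keep no depth, so the reads behind a value are unknown and no count test was run. Columns summed to 992259 to 998569 TPM.

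Fits used limma 3.58.1 in R 4.3.3 (lmFit, eBayes with trend) on log2(TPM + 1) over 14140 genes whose mean reached 1 TPM, group as the only term. They were also run on simulated data in which 200 genes were changed. Of changes by a factor of 2, 29.7% were called in the right direction, and of those by a factor of 4, 80.3%. Unchanged genes made 5.04% of the calls. A member without a call may therefore still have changed. Genes were matched to GENCODE release 29 (GRCh38, the assembly also called hg38), in which all 126 members were found. Fingers and KRAB boxes (at least 10 of 14 scored positions) were counted in translated coding transcripts. The members and lists were chosen with earlier results of these data known. Named are called members, the 4 largest fold changes each way, the 8 highest means, the 3 genes on each side of the limit, and genes of the lists; others without overlap between groups were named after their values were seen. Alternatives were 2 pseudocounts, 2 filters, 2 scalings, length and GC correction, no trend, a replicate block, each tumor left out, and 3 other choices of members.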

Additional observations from a re-analysis of the deposited data

How the results depend on the processing

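ZNF428 was called in all 15 alternative fits. The number of members that rose was 2 with medians of ratios and with length and GC correction (ZNF428 and ZNF526), 3 with quantile normalization (these and ZNF319), and 1 whichever single tumor was left out. The number that fell was 1 (ZNF106) with each of these 3 settings and when control tumor 2 was left out, and 0 when any other tumor was (range 0 to 1). Over all genes, 421 of 14140 were called in the main fit and 517 of 14140 with medians of ratios. Calls were 492 of 14044 with length and GC correction, 586 of 14140 with quantile normalization and 372 of 9889 with a minimum mean of 5 TPM. Leaving out control tumor 2 gave 791 of 14228, and leaving out any other tumor 127 to 192 calls. Members without a KRAB box had 3, 3 and 4 calls with medians of ratios, length and GC correction and quantile normalization, and 1 to 2 without single tumors; KRAB members had 0 in every fit. The family's median ranged from -0.065 (without control tumor 2) to 0.098 (without control tumor 1), so its sign depends on single controls. The median over all tested genes moved in the same directions. It was -0.13 without control tumor 2 and 0.015 without control tumor 1, beside -0.056 in the main fit. Of the TRIM28 list 1 gene fell with medians of ratios and with a minimum mean of 5 TPM, and 0 to 2 without single tumors, with medians from -0.51 to -0.15.

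The labels share replicate numbers between the groups but do not tie tumors together, and deviations of same-numbered tumors correlated at -0.043, -0.046 and -0.059. With a replicate block 1 member rose and 0 fell, while calls over all genes went from 421 to 185; no call of a member changed.

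Of 465 values of 31 single members under alternatives, 445 kept direction and side of the threshold, 8 passed newly (ZNF106, ZNF319 and ZNF526) and 12 changed sign. They were ZNF219 (-0.035) and ZNF281 (0.10) with length and GC correction, ZNF281 with quantile normalization (0.0064), and 9 values with 1 tumor left out. Over the fits without single tumors, ZNF219 ranged from -0.059 to 0.19, ZNF281 from -0.19 to 0.10, ZNF385A from -0.056 to 0.44, ZNF592 from -0.23 to 0.14, ZNF593 from -0.13 to 0.0054, ZNF598 from -0.30 to 0.0051 and ZNF76 from -0.11 to 0.33. Leaving out control tumor 2 turned ZNF219, ZNF385A, ZNF592, ZNF593 and ZNF76, leaving out control tumor 1 turned ZNF281 and ZNF598, and leaving out irradiated tumors 3 and 2 turned ZNF592 and ZNF598. The cause was not tested. Limits are the 3 tumors per group, the unknown depth and reads shared between overlapping or near-identical finger genes.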

Other observations

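ZNF genes below the limit and relatives of the family were tested in the same fit, in which 2.98% of all genes were called and 20.5% had an unadjusted p under 0.05. Of the 434 ZNF rows below 5 TPM, 220 passed the filter of 1 TPM, and 0 of these rose or fell in limma, with 11 higher and 5 lower at an unadjusted p under 0.05. Their median log2 fold change was 0.069 with 132 above 0, and the 168 among them with a KRAB box had one of 0.082 with 106 above 0. The 35 tested ZBTB genes, whose fingers are joined to a BTB domain, had a median of 0.095, the 13 ZSCAN genes 0.13, the 6 ZKSCAN genes 0.26 and the 11 ZFP genes 0.14, with 0 calls in each. In these families the unadjusted p was under 0.05 in 5, 1, 1 and 0 genes.

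The spread between tumors of a group was larger in controls. The median coefficient of variation of the members was 21.1% in controls and 14.7% in irradiated tumors, beside 18.2% and 13.2% for all tested genes at or above 5 TPM, and it was larger in controls in 88 of 126 members. The pseudogene ZNF731P had the largest value in controls (55.5%), and ZNF780A in irradiated tumors (58.4%).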
